A study of Mus musculus with 6 samples.

Results

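Interferon-induced genes outside the ISG15 conjugation pathway were examined in mouse spleen after cadmium exposure. The group held 37 genes chosen by name, and every array probe whose platform annotation gave 1 of these symbols was taken. Of the 37 genes, 36 had a probe, 69 probes in all, out of 19057 genes and 34885 probes with a single symbol on the array. Of the 36, 29 were detected on at least 2 arrays and entered the tests, among 13559 genes and unnamed probes tested in all. None of the 29 passed an adjusted p of 0.05 in any comparison of the groups. Between the replicate arrays at 5 µmol/kg, 26 of the 29 read higher on array 2, against 7197 of the 13559 features tested (53.1%), and the signal of Ifit3 differed 7.53-fold. Other interferon genes and several lists of cell type markers also read mostly higher on that array.

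Cells that sense viral RNA or DNA release type I interferon, and its receptor activates a complex that holds STAT2 and IRF9. The complex binds the interferon-stimulated response element (ISRE) in the promoters of genes whose products bind, cut or trap viral components. Interferon gamma acts on the gamma-activated site (GAS), and in mouse it induces guanosine triphosphatases of the IRG and GBP families, which attack the vacuoles of intracellular pathogens. In spleen, macrophages, dendritic cells and lymphocytes all respond to interferon.

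The mice were of the ICR stock, which is outbred, and 28 days old. Each received 1 subcutaneous injection, either 200 µL of saline or the same volume with cadmium chloride at 5 or 10 µmol per kg body weight, and RNA of the whole spleen was taken after 24 h. Each of the 3 groups, of 7 to 8 animals by the labels, had 2 bead arrays. Whether an array stood for 1 animal or for a pool is not stated, so p-values reflect the spread among arrays alone, and that spread may be technical. Values are log2 signals after background correction with an offset of 16, a scale that understates differences of dim genes.

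Several promoters of these genes are shown because they carry the elements through which interferon acts. Windows from 250 bases before to 50 bases after the annotated start were taken from RefSeq (GRCm38.p6) for the 28 genes found there. The ISRE core was searched as TTTC, any 2 bases and TTTC again, or on the other strand as GAAA, any 2 bases and GAAA, and overlapping matches were all counted. The GAS core was searched as TTCNNNGAA, which is its own reverse complement. Stretches of 60 bases are printed 5′ to 3′ on the strand of the gene, with all matches in capitals.
Ifit3, chr19:34583369-34583428, plus strand: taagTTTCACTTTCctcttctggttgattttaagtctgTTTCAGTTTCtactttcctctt
Oas1g, chr5:120887614-120887673, minus strand: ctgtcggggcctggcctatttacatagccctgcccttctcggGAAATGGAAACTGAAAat
Oas3, chr5:120777713-120777772, minus strand: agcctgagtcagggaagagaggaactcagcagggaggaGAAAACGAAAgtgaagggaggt
Rsad2, chr12:26456551-26456610, minus strand: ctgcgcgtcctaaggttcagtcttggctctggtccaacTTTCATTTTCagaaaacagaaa
Bst2, chr8:71537575-71537634, minus strand: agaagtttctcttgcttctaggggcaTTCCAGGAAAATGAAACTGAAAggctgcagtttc
Ifi213, chr1:173599324-173599383, minus strand: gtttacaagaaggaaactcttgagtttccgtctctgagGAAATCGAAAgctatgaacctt
Irgm1, chr11:48871423-48871482, minus strand: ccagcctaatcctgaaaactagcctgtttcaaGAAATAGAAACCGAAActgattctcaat
Igtp, chr11:58199484-58199543, plus strand: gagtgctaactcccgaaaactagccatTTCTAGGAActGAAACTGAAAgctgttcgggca
Irgm2, chr11:58214875-58214934, plus strand: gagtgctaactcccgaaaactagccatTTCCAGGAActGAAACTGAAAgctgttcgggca

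In Oas1g, Bst2 and Irgm1 the capitals are 2 overlapping ISRE cores, and in Bst2 a GAS core overlaps them. The windows of Igtp and Irgm2 differed at 1 of 60 bases and each held a GAS core followed by an ISRE core. An ISRE core was present in 18 of the 28 windows (64.3%), against 1079 of the 27025 genes in the table (3.99%). A GAS core was present in 6 of the 28 (21.4%), against 9.55% of all genes. The genes without an ISRE core in the window were Cmpk2, Ifi35, Ifi44, Ifi47, Ifit2, Irf7, Irf9, Oasl1, Oasl2 and Xaf1. A match is a description of the letters and does not show a bound site.

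**Figure D1:**
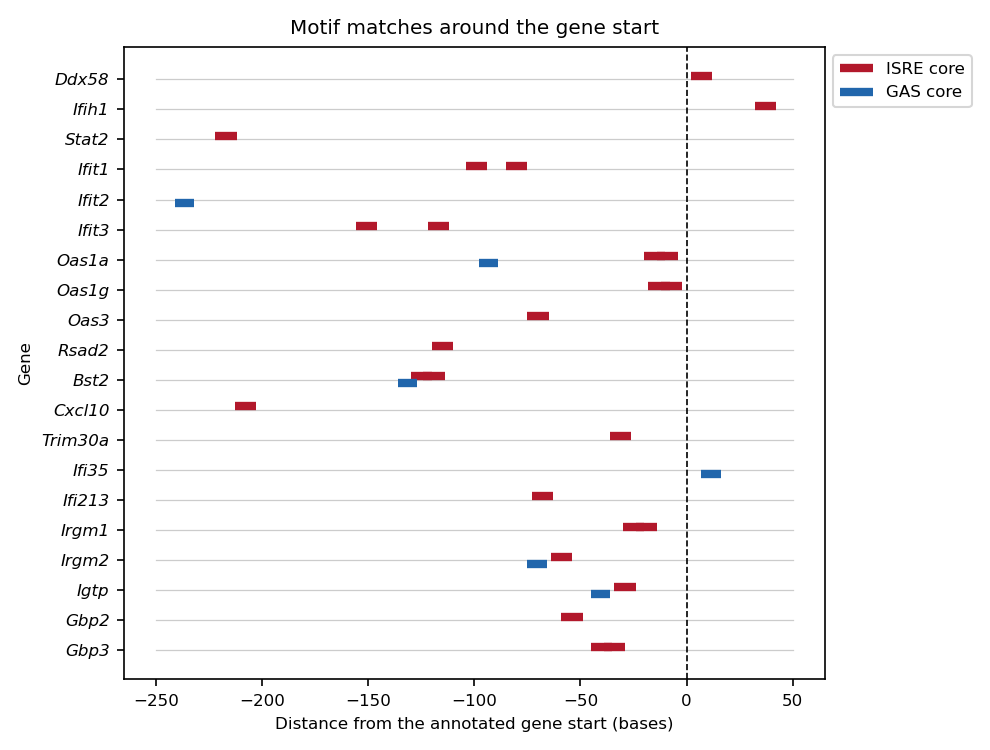
Positions of ISRE cores (red) and GAS cores (blue) in the promoter windows of the interferon-induced genes that held at least 1 match, with the distance from the annotated gene start in bases on the horizontal axis and 1 gene per row. Of the 28 windows searched, 18 held an ISRE core and 6 a GAS core; of the annotated starts of Trim30a, 1 is drawn.

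The arrays differed in pancreatic signal. The mean log2 signal of 26 acinar genes was 4.78 for saline array 1, 4.96 for array 1 at 10 µmol/kg, and between 10.73 and 12.07 on the other 4 arrays. Their summed deposited signal was 435 and 851 on those 2 arrays and 106000 to 220000 on the other 4. The median log2 signal of the 29 interferon-induced genes was 6.34 and 6.33 on the saline arrays. It was 6.32 and 6.98 on the arrays at 5 µmol/kg and 6.17 and 5.90 on those at 10 µmol/kg. Between 16265 and 18561 probes were detected per array, and precision is limited throughout by having 6 arrays. Of the 29 genes, 23 were detected on all 6 arrays and 28 on at least 1 array of every group.

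**Figure D2:**
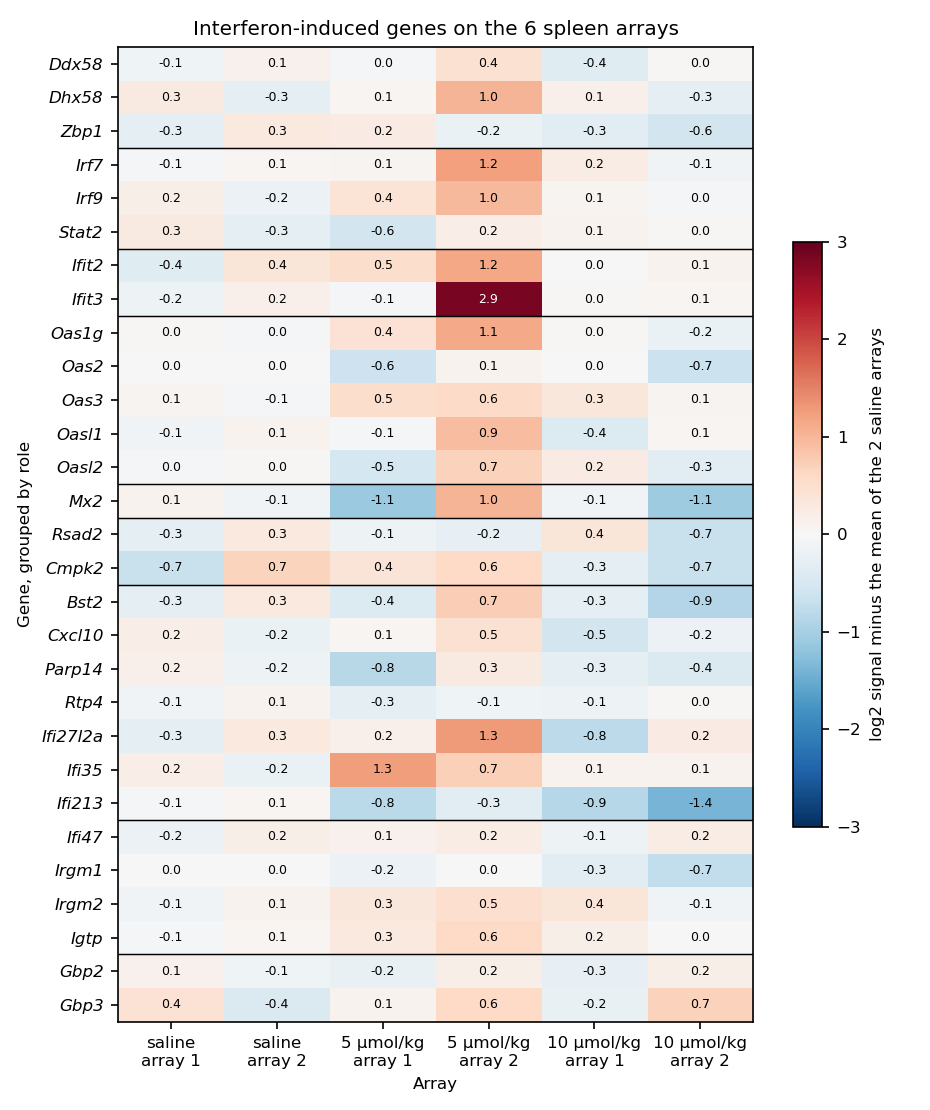
Log2 signal of each of the 29 tested interferon-induced genes on each of the 6 arrays, as the difference from the mean of the saline arrays, in genes grouped by role from RNA sensors at the top to GBP family members at the bottom; red is higher and blue lower. Array 2 at 5 µmol/kg is the reddest column, with Ifit3 2.9 above the saline mean, while Mx2 stood 1.1 below that mean on array 1 of the same dose.

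Of the sensors of foreign nucleic acid, 3 were tested. By their tested probes, the differences had the same sign in each comparison of the groups. Zbp1 was lower on array 2 at 5 µmol/kg than on array 1, where the others were higher. Zbp1 encodes a sensor of left-handed nucleic acid that can start cell death. Its log2 signal was 5.52 and 6.10 in saline, 6.05 and 5.62 at 5 µmol/kg and 5.47 and 5.25 at 10 µmol/kg. The saline and 10 µmol/kg arrays did not overlap, and the 5 µmol/kg arrays lay within the saline range. The difference at 10 µmol/kg was −0.44 ± 0.30 (SE, n = 2 arrays per group; limma adjusted p = 1), at 5 µmol/kg 0.03 ± 0.30 (adjusted p = 0.98), and between the doses −0.47 ± 0.30 (adjusted p = 0.981). Ddx58, which encodes the RNA sensor RIG-I, and Dhx58, which encodes its regulator LGP2, read 0.49 and 0.96 higher on the second than on the first array at 5 µmol/kg. All 3 Dhx58 probes that were detected read highest on that array. At 10 µmol/kg the tested probe differed from saline by −0.08 and the other probes by 0.002 and 0.36, so their signs disagreed. The probe at 0.36 differed from saline by 1.23 ± 0.36 at 5 µmol/kg (limma adjusted p = 0.492 with every detected probe tested). Ifih1, encoding the RNA sensor MDA5, was detected only on array 2 at 5 µmol/kg, with a log2 signal of 4.93 there and 4.38 to 4.59 elsewhere, and was not tested.

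The transcription factors STAT2, IRF9 and IRF7 carry and amplify the interferon signal. Irf9, the DNA-binding part of the complex, read 8.33 and 7.99 in saline, 8.56 and 9.13 at 5 µmol/kg and 8.24 and 8.12 at 10 µmol/kg. Both arrays at 5 µmol/kg were above the other 4. The difference from saline at 5 µmol/kg was 0.69 ± 0.28 (unadjusted p = 0.0479, adjusted p = 0.525), and the second Irf9 probe gave 0.67 ± 0.26. At 10 µmol/kg it was 0.02 ± 0.28 against saline (adjusted p = 1) and −0.67 ± 0.28 against 5 µmol/kg (adjusted p = 0.981). Irf7, a factor that is itself induced and drives more interferon, read 5.90 and 6.03 in saline, 6.04 and 7.19 at 5 µmol/kg and 6.17 and 5.84 at 10 µmol/kg. Array 2 at 5 µmol/kg stood apart from all other arrays, which were within 5.84 to 6.17. The Irf7 differences were 0.66 ± 0.39, 0.05 ± 0.39 and −0.61 ± 0.39 for the lower dose minus saline, the higher dose minus saline and the higher minus the lower dose (adjusted p = 0.577, 1 and 0.981). Stat2 read 6.34 and 5.81 in saline, 5.51 and 6.27 at 5 µmol/kg and 6.18 and 6.12 at 10 µmol/kg. These groups overlapped, with differences of −0.18, 0.08 and 0.26 in the same order (SE 0.33 each; adjusted p = 0.857, 1 and 0.981).

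IFIT proteins form complexes that bind viral RNA lacking the host cap structure. Ifit3 read 7.05 and 7.37 in saline, 7.15 and 10.07 at 5 µmol/kg and 7.25 and 7.28 at 10 µmol/kg. A single array was high, and the other 5 lay within 7.05 to 7.37. Its other probe was detected on array 2 at 5 µmol/kg alone, with 5.64 there and 4.38 to 4.49 elsewhere. The differences of Ifit3 were 1.40 ± 0.83 at 5 µmol/kg, 0.05 ± 0.83 at 10 µmol/kg and −1.35 ± 0.83 between the doses (adjusted p = 0.575, 1 and 0.981). Ifit2 read 5.44 and 6.14 in saline, 6.32 and 6.95 at 5 µmol/kg and 5.78 and 5.90 at 10 µmol/kg. Both arrays at 5 µmol/kg were above the rest, by 0.85 ± 0.34 against saline (unadjusted p = 0.0427, adjusted p = 0.525). The 10 µmol/kg arrays differed from saline by 0.05 ± 0.34 (adjusted p = 1) and from 5 µmol/kg by −0.79 ± 0.34 (adjusted p = 0.981). A second Ifit2 probe, detected on all 6 arrays, read 5.12 and 4.94 in saline, 4.995 and 5.86 at 5 µmol/kg and 4.97 and 5.63 at 10 µmol/kg. Its array 1 at 5 µmol/kg lay within the saline range. It differed by 0.40 ± 0.37 at 5 µmol/kg and by −0.13 ± 0.37 between the doses, so the Ifit2 probes disagreed. Ifit1 was not detected on any array.

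The OAS family makes the 2′-5′ linked oligoadenylates that switch on the RNA-cutting enzyme RNase L, apart from OAS-like members that lack this activity or act by other means. All 5 tested OAS genes read highest of the 6 arrays on array 2 at 5 µmol/kg. Oas1g read 5.43 and 5.38 in saline, 5.84 and 6.55 at 5 µmol/kg and 5.44 and 5.21 at 10 µmol/kg. Both arrays at 5 µmol/kg exceeded the other 4, with differences of 0.79 ± 0.30 from saline (unadjusted p = 0.0339, adjusted p = 0.525) and, for 10 against 5 µmol/kg, −0.87 ± 0.30 (unadjusted p = 0.0237, adjusted p = 0.981). Against saline the higher dose gave −0.08 ± 0.30 (adjusted p = 1). A second Oas1g probe, detected on 4 arrays, differed by 0.89 ± 0.28 at 5 µmol/kg, and one detected on 3 arrays by −0.25 ± 0.26. The Oas1 genes form a cluster of close copies, so a probe may read more than 1 of them, which was not tested.

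Oas3 read 4.85 and 4.71 in saline, 5.31 and 5.36 at 5 µmol/kg and 5.13 and 4.87 at 10 µmol/kg, and 5 of the 6 arrays detected it, all but saline array 2. It was the OAS gene whose arrays at 5 µmol/kg were closest, 0.05 apart, and both exceeded the other 4. The difference was 0.55 ± 0.23 against saline (unadjusted p = 0.0499, adjusted p = 0.525), 0.22 ± 0.23 at 10 µmol/kg (adjusted p = 1) and −0.33 ± 0.23 between the doses (adjusted p = 0.981). Oasl2 read 5.23 and 5.28 in saline, 4.74 and 5.95 at 5 µmol/kg and 5.49 and 4.91 at 10 µmol/kg. Array 1 at 5 µmol/kg did not detect it, so the value there is not above background, and array 2 of that dose was the highest of the 6. With that value taken as measured, the group differences were 0.09, −0.05 and −0.14 (SE 0.43 each; adjusted p = 0.953, 1 and 0.988). Another Oasl2 probe was detected on that array alone, and 1 more on saline array 1 alone. Oasl1 read 0.98 higher on array 2 than on array 1 at this dose, and Oas2 was detected at this dose on array 2 only (5.46). Oas1a was not detected.

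Mx proteins are GTPases that bind and block viral nucleoproteins. Mx2 read 6.03 and 5.82 in saline, 4.81 and 6.94 at 5 µmol/kg and 5.83 and 4.86 at 10 µmol/kg. Array 2 at 5 µmol/kg was the highest and array 1 of the same dose the lowest, a 4.37-fold difference within the group. The value on array 1 was close to background, as the dimmest detected probe there read 4.76. The fold therefore depends on the offset, and the deposited signals were 11.8 and 107. The group means were close, with differences of −0.05, −0.58 and −0.53 (SE 0.68 each; adjusted p = 0.983, 1 and 0.981). Mx1 was not detected on any array.

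Rsad2 encodes viperin, which makes a chain-terminating nucleotide, and the neighbouring Cmpk2 encodes a kinase that helps to supply its substrate. Rsad2 read 12.46 and 13.05 in saline, 12.61 and 12.52 at 5 µmol/kg and 13.13 and 12.09 at 10 µmol/kg. Its arrays at 5 µmol/kg differed by −0.10 and those at 10 µmol/kg by −1.04, so that its widest gap was at the higher dose. The group differences were −0.19, −0.15 and 0.04 (SE 0.39 each; adjusted p = 0.875, 1 and 0.997). Cmpk2 read 6.54 on saline array 1 and 7.86 on saline array 2, its highest value, and 7.58 and 7.81 at 5 µmol/kg. At 10 µmol/kg it read 6.93 and 6.54, below both arrays of the lower dose (−0.96 ± 0.44, adjusted p = 0.981). Neither gene read highest on array 2 at 5 µmol/kg.

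The remaining effectors act at several steps. Ifi35, which encodes a partner of the signalling protein NMI, read 5.82 and 5.43 in saline, 6.88 and 6.35 at 5 µmol/kg and 5.72 and 5.74 at 10 µmol/kg. It was the single gene of the 29 that read highest on array 1 at 5 µmol/kg. Both arrays of that dose were above the other 4, by 0.99 ± 0.28 against saline (95% interval 0.32 to 1.67, unadjusted p = 0.0107, adjusted p = 0.525). The 10 µmol/kg arrays differed from saline by 0.11 ± 0.28 (adjusted p = 1) and from 5 µmol/kg by −0.88 ± 0.28 (unadjusted p = 0.0179, adjusted p = 0.981). Ifi213, of the Ifi200 family of nucleic acid sensors, read 6.81 and 6.92 in saline, 6.07 and 6.55 at 5 µmol/kg and 6.0 and 5.46 at 10 µmol/kg. All 4 cadmium arrays lay below both saline arrays, and both arrays of the higher dose lay below both of the lower. The difference was −1.13 ± 0.30 at 10 µmol/kg (95% interval −1.84 to −0.43, unadjusted p = 0.00715, adjusted p = 1), −0.55 ± 0.30 at 5 µmol/kg (adjusted p = 0.544) and −0.58 ± 0.30 between the doses (adjusted p = 0.981). Fitted on the 4 arrays with bright acinar genes alone, Ifi213 at 10 µmol/kg differed from saline by −1.46 (adjusted p = 0.0431) and Cmpk2 by −1.32 (adjusted p = 0.0487). That fit has 1 residual degree of freedom, which comes from the pair at 5 µmol/kg.

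Bst2 encodes tetherin, which holds budding virions at the cell surface. It read 6.30 and 6.86 in saline, 6.16 and 7.32 at 5 µmol/kg and 6.31 and 5.71 at 10 µmol/kg, so that all groups overlapped. The differences were 0.16, −0.57 and −0.73 (SE 0.45 each; adjusted p = 0.907, 1 and 0.981). Parp14, an ADP-ribosyltransferase, read 8.31 and 8.00 in saline, 7.32 and 8.41 at 5 µmol/kg and 7.86 and 7.71 at 10 µmol/kg. The 10 µmol/kg arrays were below both saline arrays, and the 5 µmol/kg arrays enclosed all others. The differences were −0.29, −0.37 and −0.08 (SE 0.38 each; adjusted p = 0.794, 1 and 0.995). Ifi27l2a read 7.66 and 8.24 in saline, 8.11 and 9.22 at 5 µmol/kg and 7.17 and 8.19 at 10 µmol/kg, with array 2 the higher array in every group. The T cell chemokine gene Cxcl10 read 0.41 higher on array 2 at 5 µmol/kg, and its arrays at 10 µmol/kg were below both at 5 µmol/kg (−0.62 ± 0.28, adjusted p = 0.981). Rtp4, a chaperone of receptor transport, read 4.58 and 4.79 in saline, 4.42 and 4.55 at 5 µmol/kg and 4.54 and 4.72 at 10 µmol/kg. Only array 2 of saline and array 2 of 10 µmol/kg detected Rtp4, so the 5 µmol/kg level is only a bound and no fold is given. Xaf1, a regulator of cell death, and Trim30a, a regulator of inflammatory signalling, were each detected on 1 array, and Ifi44 had no probe.

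All 6 tested GTPases of the IRG and GBP families read higher on the second array at 5 µmol/kg, by a median of 0.24. Irgm1, which regulates the other IRG proteins, read 10.71 and 10.69 in saline, 10.53 and 10.68 at 5 µmol/kg and 10.39 and 9.97 at 10 µmol/kg. All cadmium arrays lay below both saline arrays, array 2 at 5 µmol/kg at 10.68 against 10.69, and the differences were −0.09, −0.52 and −0.43 (SE 0.25 each; adjusted p = 0.904, 1 and 0.981). A second Irgm1 probe read 6.81 and 7.15 in saline, 6.77 and 8.13 at 5 µmol/kg and 6.40 and 7.07 at 10 µmol/kg, with array 2 at 5 µmol/kg highest, so the probes of this gene disagreed. Irgm2, another regulator, read 9.64 and 9.87 in saline, 10.08 and 10.26 at 5 µmol/kg and 10.12 and 9.64 at 10 µmol/kg. Its arrays at 5 µmol/kg exceeded both saline arrays, with differences of 0.42, 0.13 and −0.29 (SE 0.26 each; adjusted p = 0.589, 1 and 0.981). The effector Ifi47 read 4.50 and 4.83 in saline, 4.80 and 4.88 at 5 µmol/kg and 4.52 and 4.88 at 10 µmol/kg. Its groups overlapped, with differences of 0.17, 0.04 and −0.14 (SE 0.26 each; adjusted p = 0.813, 1 and 0.981), and 4 arrays detected it, all but saline array 1 and array 1 at 10 µmol/kg. Igtp, which is also called Irgm3, read 0.31 higher on array 2 at 5 µmol/kg, and both arrays of that dose were above the other 4. Gbp3, a guanylate-binding protein, read 8.21 and 7.34 in saline, 7.89 and 8.37 at 5 µmol/kg and 7.55 and 8.47 at 10 µmol/kg. The groups overlapped, and the differences were 0.35, 0.23 and −0.12 (SE 0.43 each; adjusted p = 0.776, 1 and 0.989). Gbp2 lay between 9.22 and 9.65 on all 6 arrays, and the effector Iigp1 was not detected by any of its 4 probes.

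**Figure D3:**
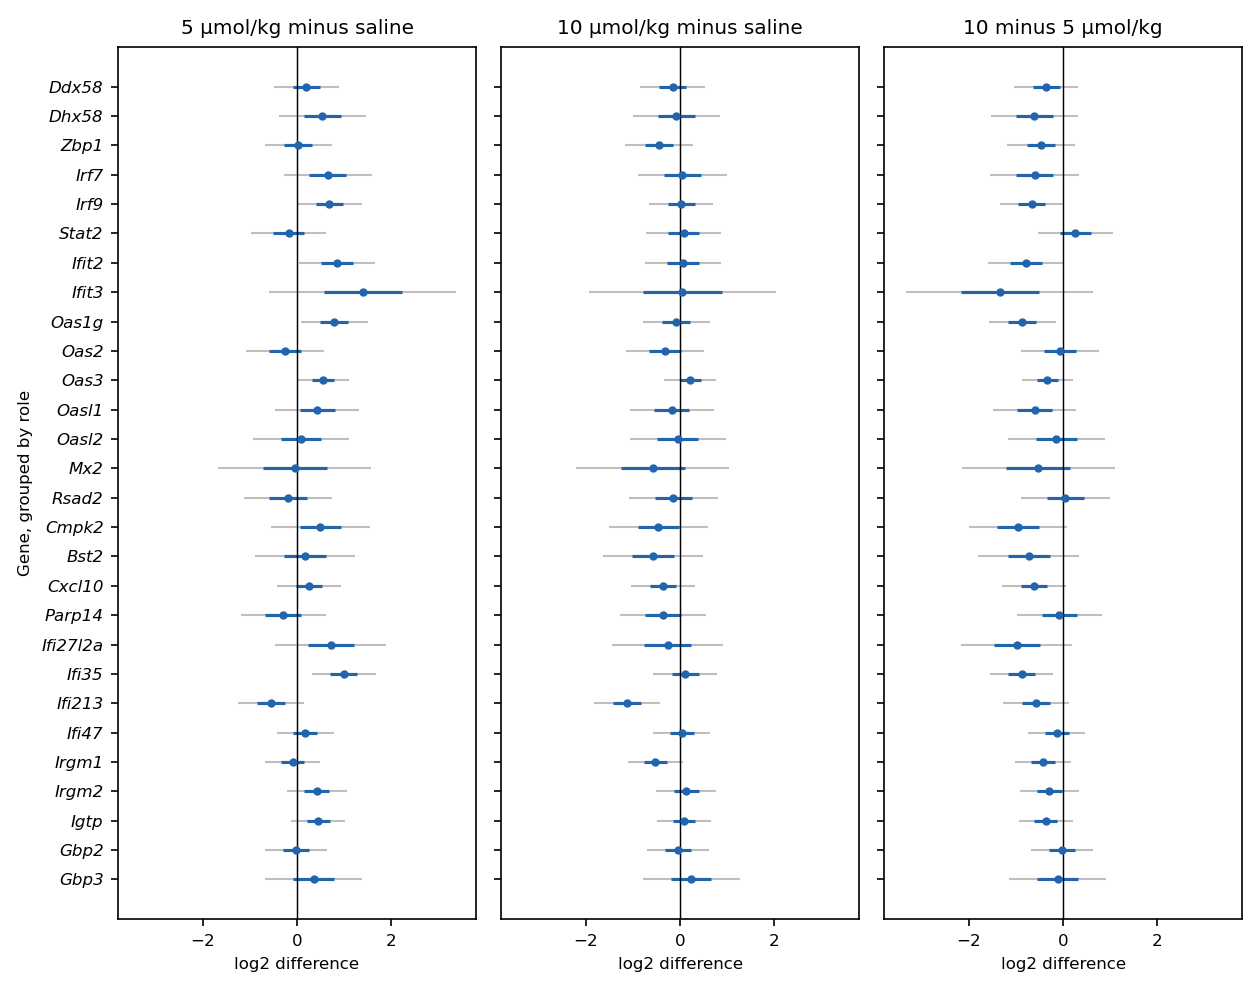
Log2 differences between groups for 28 tested interferon-induced genes (Rtp4 is left out because no array at 5 µmol/kg detected it), with the standard error as a thick bar and the 95% interval as a thin bar, n = 2 arrays per group. The interval lies above 0 for Irf9, Ifit2, Oas1g, Oas3 and Ifi35 at 5 µmol/kg and below 0 for Ifi213 at 10 µmol/kg. Between the doses it lies below 0 for Oas1g and Ifi35. All of these are before adjustment, and the bars of Ifit3 and Mx2 are the longest.

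The first comparison asked which of these genes differ from saline at 5 µmol/kg. The median difference was 0.26 on the log2 scale, with 20 of 29 above 0, against −0.01 and 6603 of 13559 for all genes tested. By limma, 0% of all genes tested and none of the 29 passed the adjusted threshold. The smallest adjusted p was 0.525, and 1257 genes had an unadjusted p under 0.05. Of the 29, 5 were higher at an unadjusted p under 0.05 (Irf9, Ifit2, Oas1g, Oas3 and Ifi35), where 4.58% of all genes tested were higher, and 0 were lower, where 4.69% were. Both arrays at 5 µmol/kg were above both saline arrays for 8 of the 29 (27.6%), against 21.8% of all genes, and below them for 3 (Rtp4, Ifi213 and Irgm1, 10.3%), against 25.2%. Of these 3, Rtp4 was not detected at 5 µmol/kg, so its order is within background. Irgm1 was separated only by 10.68 against 10.69, and its second probe overlapped saline. The share of higher, non-overlapping genes was near that of all genes, and the share at the unadjusted level on the higher side (17.2%) was above it.

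At 10 µmol/kg the median difference from the same saline arrays was −0.08, with 11 of 29 above 0, against −0.02 for all genes. None of the 29 and 0% of all genes passed, and 221 genes had an unadjusted p under 0.05. At that unadjusted level 0 of the 29 were higher, against 0.996% of all genes, and Ifi213 was lower, 1 of 29 (3.45%), against 0.634%. The groups did not overlap for Oas3 on the higher side, against 11% of all genes, and for Zbp1, Parp14, Ifi213 and Irgm1 on the lower side (13.8%), against 11.5%. On the lower side this share was near that of all genes.

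Between the doses, the median of the 29 was −0.47 (10 minus 5 µmol/kg), with 3 of 29 above 0, against 0.01 and 6894 of 13559 for all genes. This comparison shares its 5 µmol/kg arrays with the first and its 10 µmol/kg arrays with the second. No gene passed (0%), the smallest adjusted p was 0.981, and 130 genes had an unadjusted p under 0.05. Oas1g and Ifi35 were lower at the unadjusted level, 2 of 29 (6.9%), against 0.472% of all genes, and 0 were higher, against 0.487%. For 11 of the 29 (37.9%) both 10 µmol/kg arrays were below both 5 µmol/kg arrays, against 15.7% of all genes. They were Zbp1, Irf9, Ifit2, Oas1g, Oas3, Cmpk2, Cxcl10, Ifi35, Ifi213, Irgm1 and Igtp. In 0 of the 29 were they above, against 15.2%.

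The 2 arrays at 5 µmol/kg were then compared with each other. Array 2 minus array 1 had a median of 0.49 over the 29, against 0.02 over all genes. A log2 difference over 1, more than a doubling of signal, was found in 7 of the 29 (24.1%), namely Ifit3, Mx2, Oasl2, Bst2, Irf7, Ifi27l2a and Parp14, against 97 of all genes (0.715%). For Oasl2 the value on array 1 was not above background, and for Mx2 it was close to background, so both differences are inexact. None of the 29 was under −1, as were 0.715% of all genes. Among the 13559 ranked by this difference, Ifit3 was 5th and Mx2 12th, and the other 5 lay between rank 51 and rank 69. The 23 genes outside the IRG and GBP families had a median of 0.71 and the 6 IRG and GBP genes one of 0.24. With 1 array on each side this is a description with no test. The 14 tested genes with an ISRE core in the window had a median of 0.44, and the 8 without it 0.60.

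**Figure D4:**
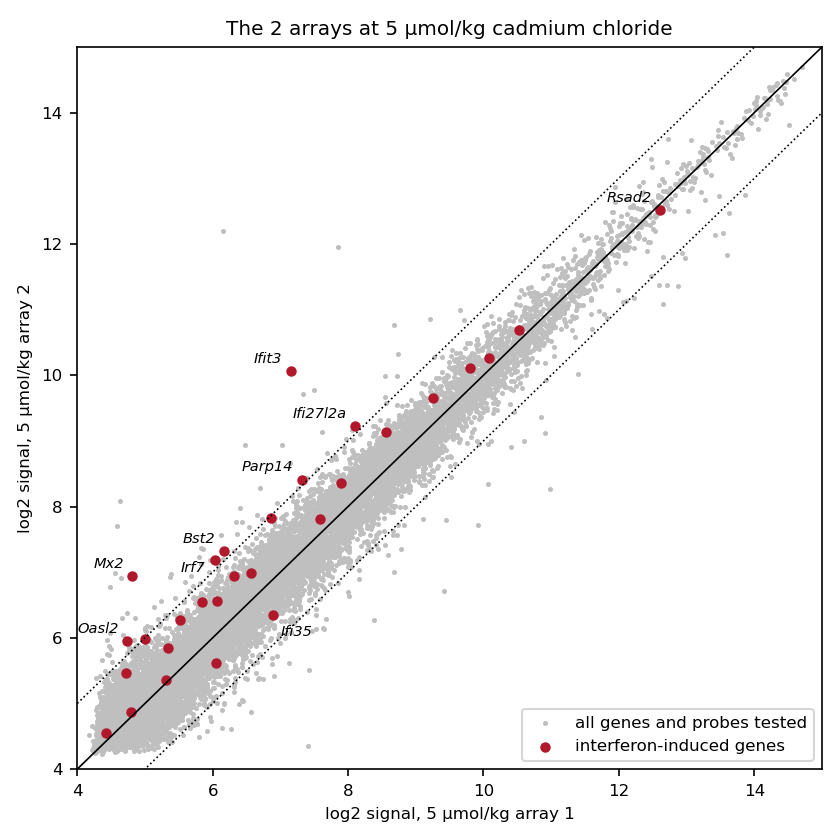
Log2 signal on array 2 against array 1 at 5 µmol/kg for all 13559 genes and probes tested (grey) and the 29 interferon-induced genes (red), with the line of equality and dotted lines at a difference of 1 in either direction. The 7 labelled genes above the upper dotted line include Ifit3 (7.15 and 10.07) and Mx2 (4.81 and 6.94), while Rsad2 lies close to the line of equality and Ifi35 below it.

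The other replicate pairs did not share this difference. In saline, array 2 minus array 1 had a median of 0.12 over the 29, with 1 gene over 1 (Cmpk2) and 0 under −1, against 4.62% and 6.65% of all genes. At 10 µmol/kg the median was −0.19, with Ifi27l2a over 1 and Rsad2 under −1, against 4.6% and 6.65% of all genes. The arrays of those pairs differ in acinar signal, and those at 5 µmol/kg are both bright for it (mean log2 11.66 and 10.73). Of the 29 genes, 19 read highest of all 6 arrays on array 2 at 5 µmol/kg, against 9.88% of all genes. Array 1 at 5 µmol/kg was highest for 1 (18.5% of all genes), saline array 1 for 2 (21.9%), saline array 2 for 4 (21.4%), array 1 at 10 µmol/kg for 1 (12.5%) and array 2 at 10 µmol/kg for 2 (15.8%). Array 2 at 10 µmol/kg was lowest for 9 of the 29, against 14.1% of all genes.

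Other genes also separated the arrays at 5 µmol/kg. The MHC class II gene H2-Ea read 6.16 on array 1 and 12.19 on array 2, and H2-Eb1 7.85 and 11.96, the largest differences between these arrays. H2-Ea also read 10.62 on array 2 at 10 µmol/kg and 6.72 to 7.05 on the other 3, so it does not follow Ifit3, which was 7.28 there. Markers of cell types read higher on array 2 as well, with 13 of 14 macrophage and monocyte markers above 0 (median 0.33), 11 of 11 neutrophil markers (0.32), 6 of 8 T cell markers (0.34), 6 of 7 B cell markers (0.22), 4 of 4 NK cell markers (0.21) and 4 of 6 conventional dendritic cell markers (0.09). Plasmacytoid dendritic cells, a major source of type I interferon, had 5 of 8 markers above 0 (median 0.17), erythroid cells 2 of 9 (−0.25) and acinar cells 1 of 26 (−0.97). In whole tissue, fewer cells of a type and less RNA per cell cannot be told apart. The part of these cell types in the array difference was not tested.

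The summed deposited signal of the macrophage markers was 9360 to 9950 in saline, 9020 and 12200 at 5 µmol/kg and 13400 and 15500 at 10 µmol/kg. Their median difference from saline was 0.23 at 5 µmol/kg and 0.53 at 10 µmol/kg. The plasmacytoid markers summed to 2790 to 4720 in saline, 1470 and 2190 at 5 µmol/kg and 2560 and 3460 at 10 µmol/kg. Tcf4 and Ly6d weigh most in this sum, with mean log2 signals of 10.16 and 10.08, against 7.34 or less for the others. The median differences of the plasmacytoid markers from saline were −0.46 and −0.18. Siglech, the defining surface receptor among them, differed by −1.33 at 5 µmol/kg (adjusted p = 0.525). All 14 macrophage and all 11 neutrophil markers tested were detected on every array, as were 6 or 7 of the 7 B cell and 7 or 8 of the 8 T cell markers. Only 2 to 4 of the 4 NK cell markers were detected per array, and their differences from saline at 5 µmol/kg ranged from −1.75 to 0.55. The B cell markers Cd79a and Pax5, the T cell markers Cd8a, Lck, Tcf7 and Trac, the dendritic cell markers Flt3, Itgax and Xcr1 and the macrophage marker Cd68 did not enter the tests. The medians at 5 and 10 µmol/kg against saline were 0.27 and 0.23 for neutrophil, −0.40 and −0.31 for B cell, 0.03 and 0.08 for T cell and 0.32 and 0.03 for NK cell markers. They were −0.05 and −0.01 for conventional dendritic cell, 0.21 and 0.04 for erythroid and 3.35 and −0.26 for acinar markers.

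Leaving out arrays showed which comparison rested on array 2 at 5 µmol/kg. Without it, the median difference of the 29 from saline was 0.05, and Ifi35 differed by 1.26. Without array 1 of that dose the median was 0.59, and Ifit3 differed from saline by 2.85. Each of these fits left 1 array at 5 µmol/kg, so effect sizes alone are given. The difference between the doses had a median of −0.13 without array 2 and of −0.63 without array 1 at 5 µmol/kg. Between the doses Ifit3 differed by −2.80 without array 1 and by 0.11 without array 2. Ifi35 differed by −0.61 without array 1 and by −1.15 without array 2. Among the 4 arrays with bright acinar genes the medians were 0.11 and −0.10 against saline and −0.48 between the doses.

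**Figure D5:**
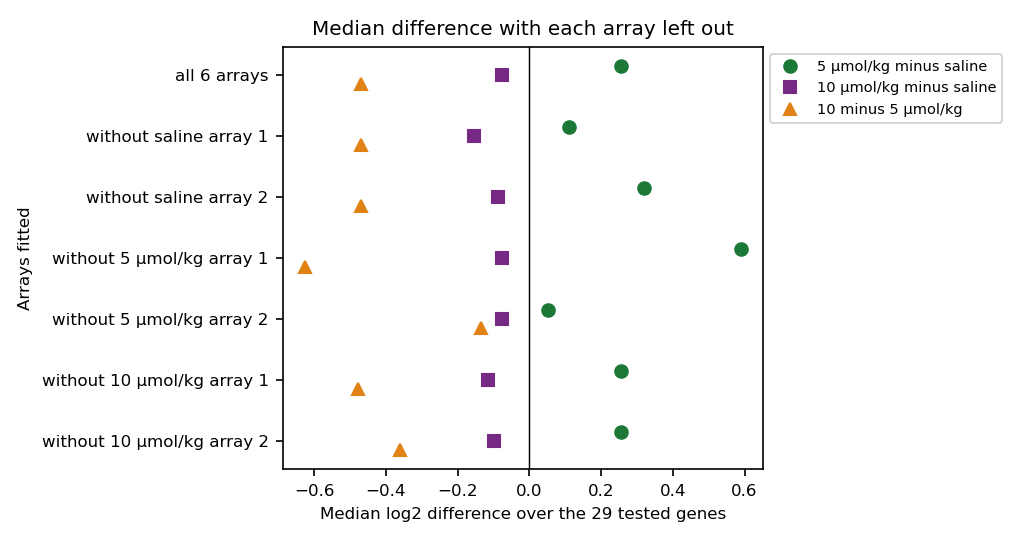
Median log2 difference over the 29 tested interferon-induced genes in each comparison, with all 6 arrays and with each array left out in turn. The median for 5 µmol/kg minus saline ranged from 0.05 without array 2 at that dose to 0.59 without array 1, and the median between the doses from −0.13 to −0.63 for the same arrays.

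Other genes of the pathway were set beside these. Of 30 interferon ligands, receptors and signalling genes, 18 were tested, and their median was −0.28 at 5 µmol/kg, −0.06 at 10 µmol/kg and 0.22 between the doses. At 5 µmol/kg 5 of the 18 were above saline. None passed, and at the unadjusted level the transcription factor gene Irf3 (−0.73 at 5 µmol/kg, adjusted p = 0.525) and the interferon gamma receptor gene Ifngr2 (−1.05, adjusted p = 0.525) were lower and the kinase gene Jak2 (0.68 at 10 µmol/kg, adjusted p = 1) higher. Irf1, a transcription factor induced by interferon gamma, differed by −0.59 ± 0.42 at 5 µmol/kg (adjusted p = 0.631). On array 2 at 5 µmol/kg 16 of the 18 read higher than on array 1 (median 0.31), 0 of them by more than 1. Of the interferon ligands on the list only Ifng entered the tests (−0.02 at 5 µmol/kg), while Ifnb1, Ifna2, Ifna4, Ifnl2 and Ifnl3 did not. Ifng read 4.58 to 4.90, where the dimmest detected probe of each array read 4.64 to 4.76. Its signal was therefore near background, and its difference is inexact. Of 60 other interferon-stimulated genes 41 were tested, with medians of 0.01, −0.15 and 0.00. At the unadjusted level Ifitm2 (0.74) and Lgals9 (0.99) were higher and Tap2 (−0.89) and Parp9 (−1.30) lower at 5 µmol/kg, and Lgals9 was higher at 10 µmol/kg (0.72). Shisa5 and Ly6e, which this list's rule also names, differed by −0.46 and −0.83 at 5 µmol/kg. Of the 41, 34 read higher on the second array at 5 µmol/kg (median 0.38), and 2 of them by more than 1, Phf11a and Slfn2 (4.88% of the list).

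The 97 genes that differed by more than 1 thus held 7 of the 29 (7.22% of the 97) and 2 of the other 41 (2.06%). The ISG15 conjugation and removal genes, of which 5 were tested, had medians of 1.01 at 5 µmol/kg, −0.15 at 10 µmol/kg and −0.21 between the doses, and 0 of them differed by more than 1 between the arrays at 5 µmol/kg. Isg15 itself read 7.33 and 8.02 in saline, 9.02 and 9.51 at 5 µmol/kg and 7.96 and 7.78 at 10 µmol/kg. At the unadjusted level the conjugating enzyme gene Ube2l6 was higher at both doses (1.24 and 1.03, adjusted p = 0.525 and 1), Isg15 was higher at the lower dose (1.59, adjusted p = 0.525), and the ISG15 protease gene Usp18 (−1.60) and Isg15 (−1.40) were lower at 10 than at 5 µmol/kg (adjusted p = 0.981 for each). The activating enzyme gene Uba7 differed from saline by −0.48 and −0.33. Both 5 µmol/kg arrays of Isg15 were above the other 4, as were those of Irf9, Ifit2, Oas1g, Oas3, Ifi35 and Igtp by their tested probes. Ifit3, Irf7 and Mx2 were high on array 2 alone. Usp18 read 6.88 and 7.95 in saline and 7.94 and 8.90 at 5 µmol/kg, where its arrays differed by 0.96.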

How the data were processed

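RNA of mouse spleen was measured on 6 Illumina bead arrays, 2 for each of 3 groups taken from the sample titles. The authors deposited a linear intensity per probe and array and a detection p-value against negative controls. The table is described as not normalized, but the sorted intensities of the arrays differed by at most 0.243, so a quantile step had been applied before deposit. Software names were not given in the sources used here. A deposited series matrix equalled the table for 45279 of 45281 probes.

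Signals were processed by neqc from limma 3.58.1 (R 4.3.3: background by detection p-values, offset 16, quantile normalization, log2), a step made for raw signals. Probes with a detection p under 0.05 on at least 2 arrays were kept (18960), and each gene was represented by its probe of highest mean signal, giving 13559 features. The platform annotation named 34885 probes with a single symbol and 18 with several, and left 10378 unnamed. A model with 1 mean per group was fitted to all 6 arrays (3 residual and 3.639 prior degrees of freedom), and p-values were adjusted by Benjamini-Hochberg over all features. The test was tried on simulated arrays. The comparison of arrays within a group has no test.

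The 37 genes and the other lists (3 of interferon pathway genes and 9 of cell type markers) were chosen with earlier results of these data known. Values on every array are given for members with an unadjusted p under 0.05 in any comparison, for the 3 with the smallest p in each direction of each comparison, and for the 5 with the largest and the 5 with the smallest difference between the arrays at 5 µmol/kg. From the interferon lists the text names the 2 with the highest mean signal and those with an unadjusted p under 0.05. Cmpk2, Ifi27l2a, Cxcl10, Ifng, H2-Ea, H2-Eb1, Phf11a, Slfn2, Siglech and second probes were named after their values were seen.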

Additional observations from a re-analysis of the deposited data

How the results depend on the processing

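Alternatives altered background, offset, filter, probe choice, arrays, variance model and covariates. The count of genes past the adjusted threshold stayed 0 in every fit with 2 exceptions. On the 4 arrays with bright acinar genes it was 287 at 5 µmol/kg and 306 at 10 µmol/kg against saline. With every detected probe tested it was 1 between the doses, Tmem14c, which is no member. The number of members with an unadjusted p under 0.05 at 5 µmol/kg was 5 as reported, beside 1257 of all 13559 features. It was 3 with the deposited signals plus 16 (1233 of 13559) and 3 with detection on all 6 arrays (1075 of 9774). With only the groups compared it was 2 (1751 of 13559), and with a trended robust variance 2 (1195 of 13559). At 10 µmol/kg it was 1 as reported, beside 221 of all 13559 features. It was 2 with an offset of 50 (270 of 13559), 2 with no filter (876 of 29453) and 2 with the acinar covariate (798 of 13559). Between the doses it was 2 as reported, beside 130 of all 13559 features. It was 4 with detection on at least 1 array (186 of 15873), 6 with no filter (832 of 29453) and 4 with every detected probe (196 of 18960). With only the groups compared it was 4 (242 of 13559), and with the acinar covariate 4 (203 of 13559). On the acinar-bright arrays it was 9 (704 of 13559), in a fit with 1 residual degree of freedom. Members over a log2 difference of 1 between the arrays at 5 µmol/kg numbered 3 with an offset of 50, in place of 7. The causes were not tested.

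With each array left out in turn, the member median ranged from 0.0515 (without array 2 at 5 µmol/kg) to 0.59 at 5 µmol/kg, from −0.15 to −0.08 at 10 µmol/kg and from −0.63 to −0.13 between the doses. Each of these fits left 1 array in a group, so no counts of members at an unadjusted p under 0.05 are given for them. Deviations of same-numbered arrays correlated at −0.28, 0.58 and −0.11 between saline and 5 µmol/kg, saline and 10 µmol/kg, and the doses. These values cannot decide whether the numbers pair the arrays, because only array 1 of saline and array 1 of 10 µmol/kg had little acinar signal. With the replicate number as a block the counts of members were 4, 1 and 4, beside 1433, 207 and 160 of all 13559 features, and 0 genes passed. Over all settings 1577 single-member values were compared with those reported, of which 1478 kept their direction and side of the threshold, 97 changed sign and 2 passed the threshold (Ifi213 and Cmpk2 at 10 µmol/kg on the acinar-bright arrays). Arrays with little acinar signal were 1 for saline and 1 for 10 µmol/kg, and gave a member median of −0.04 with no test.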
